A study of Mus musculus with 12 samples.

Results

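The genes described here encode proteins of cytotoxic cells. They are the granzymes Gzma, Gzmb, Gzmk and Gzmm and the pore-forming protein perforin (Prf1), which cytotoxic granules carry, and the protease cathepsin W (Ctsw). They were chosen by name and function, with earlier results of these data known but with no measured value in the rule, and are 6 of the 750 endogenous genes on the panel. All 6 were measured in whole CT26 tumors, a mouse colon carcinoma line grown in the flank of BALB/c mice aged 6 to 10 weeks. When tumors reached 130 to 170 mm3, mice were given vehicle, DSP-0509 (a small-molecule agonist of the RNA sensor TLR7) at 5 mg/kg intravenously, an anti-PD-1 antibody at 200 μg per mouse intraperitoneally, or both agents, and tumors were resected on day 4. Each of the 4 groups held 3 tumors. RNA was read with the nCounter mouse immune panel, in which color-coded probes bound to transcripts are counted without amplification. Each value below is a normalized count, the probe count of a tumor after scaling by the authors. Levels of different genes are not set against each other, since each probe has its own efficiency.

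Cytotoxic T cells and NK cells kill by releasing granules onto a bound target cell. Perforin opens the target's membrane, granzymes enter and cleave proteins inside it, and granzyme B in particular starts caspase-driven cell death. Granzyme A is a trypsin-like protease with other substrates, granzymes K and M are less studied members of the family, and cathepsin W is a cysteine protease found mainly in CD8 T cells and NK cells, whose substrate is less clear.

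Among the 6 genes, Prf1, Gzmb and Gzmk rose in combination-treated tumors, by 2.89-fold, 3.25-fold and 3.22-fold over vehicle. In that comparison 21.5% of all genes tested were called higher. Relative to the T cell genes Cd3d, Cd3e and Cd3g of the same tumor, the 3 log2 differences were 0.04, 0.22 and 0.20. None of these 3 passed. Prf1 was also called higher after DSP-0509 alone (2.42-fold), a call that depended on single tumors. No gene of the 6 passed the test after anti-PD-1 antibody alone. A call here means an adjusted p under 0.05 in limma on log2(value + 1) with Benjamini-Hochberg adjustment over the 646 genes tested. The Gzmm probe gave counts near those of the negative control probes, and Gzma and Ctsw spread widely among vehicle tumors. In whole tumors, a change in the number of cells that express a gene and a change in RNA per cell cannot be told apart.

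Total counts ran from 750416 to 1155698 per tumor (median 951161.5), and 5 of the 6 genes lay above the limit of the 8 negative control probes (mean plus 2 SD) in 12 of 12 tumors. Gzmm lay above it in 4 of 12 tumors, with 10 to 22 counts before scaling. It entered the test because exactly 3 tumors, all treated with anti-PD-1 antibody, reached a value of 20, so its rise in that group is partly built into the filter. The 20 housekeeping genes had a median log2 change of -0.12 in combination tumors against vehicle. The epithelial genes Epcam and Cdh1 ran from 17.95 to 134 and from 29.1 to 114 over the tumors.

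The stretch around the start site of each gene, 250 bases before it and 50 after it, was read from RefSeq's GRCm38.p6 table, which matched 5 of the 6 genes. Shown here are the 3 genes that rose with the combination and Gzma, which lies beside Gzmk on chromosome 13 with 1 gene, not protein-coding, between them, and was not called. All are written 5′ to 3′ on the gene's own strand. Capitals mark matches to 7 short motifs searched on both strands: T-box GGTGTGA, Runx TGTGGT, AP-1 TGANTCA, CRE half-site TGACGT, Ets GGAAGT, STAT TTCNNNGAA and an interferon-response repeat GAAANNGAA.
Prf1 (chr10:61297586-61297885, plus strand): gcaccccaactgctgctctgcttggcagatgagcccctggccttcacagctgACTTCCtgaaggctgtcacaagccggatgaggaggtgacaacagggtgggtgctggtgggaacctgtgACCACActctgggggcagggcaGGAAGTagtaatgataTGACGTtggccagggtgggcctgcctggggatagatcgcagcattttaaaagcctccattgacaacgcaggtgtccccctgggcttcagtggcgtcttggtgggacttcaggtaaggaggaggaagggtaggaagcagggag
Gzmb (chr14:56262285-56262584, minus strand): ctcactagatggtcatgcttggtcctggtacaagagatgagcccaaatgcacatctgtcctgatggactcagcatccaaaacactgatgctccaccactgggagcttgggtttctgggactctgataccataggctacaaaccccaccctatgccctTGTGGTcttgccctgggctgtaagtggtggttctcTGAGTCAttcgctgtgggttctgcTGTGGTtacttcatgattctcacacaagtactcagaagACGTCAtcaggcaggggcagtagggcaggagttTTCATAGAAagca
Gzmk (chr13:113180916-113181215, minus strand): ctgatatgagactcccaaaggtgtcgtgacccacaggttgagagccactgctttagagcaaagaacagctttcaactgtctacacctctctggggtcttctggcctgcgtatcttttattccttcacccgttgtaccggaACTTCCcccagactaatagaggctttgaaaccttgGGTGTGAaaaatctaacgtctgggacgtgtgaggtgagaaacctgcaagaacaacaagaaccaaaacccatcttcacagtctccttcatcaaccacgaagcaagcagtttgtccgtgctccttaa
Gzma (chr13:113100932-113101231, minus strand): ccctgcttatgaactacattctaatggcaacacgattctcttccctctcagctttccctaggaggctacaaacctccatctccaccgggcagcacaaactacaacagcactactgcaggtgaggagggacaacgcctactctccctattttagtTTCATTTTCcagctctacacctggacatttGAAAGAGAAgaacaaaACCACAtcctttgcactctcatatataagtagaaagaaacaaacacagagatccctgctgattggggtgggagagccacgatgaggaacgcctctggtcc

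Positions are counted from the start site, with negative numbers before it. The Prf1 window held Ets letters at -198 and -108, Runx letters at -130 and a CRE half-site at -92. The Gzmb window held Runx letters at -93 and -34, the AP-1 letters at -58, a CRE half-site at 5 and STAT letters at 38. The Gzmk window held Ets letters at -110 and the T-box letters at -75. The T-box letters were absent from the windows shown for Prf1, Gzmb and Gzma, but lay at -189 in a Gzmm window not shown. The Gzma window held the interferon-response repeat at -96 and -66 and Runx letters at -50. None of these matches overlapped another. Such letters are common: of 32851 RefSeq mouse promoters of this length, 3.98% held the T-box letters, 16.8% Runx, 7.81% AP-1, 7.51% the CRE half-site, 23.8% Ets, 8.3% STAT and 8.56% the interferon-response repeat. The AP-1 and STAT motifs read the same on both strands. A match describes the letters only.

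Prf1, the pore-former that lets granzymes reach their substrates, had normalized counts of 153, 275 and 153 in vehicle tumors 1 to 3. DSP-0509 tumors held 505, 353 and 518, anti-PD-1 tumors 327, 324 and 401, and combination tumors 530.0, 487 and 607. Every treated tumor of all 3 groups lay above the highest vehicle tumor. The combination raised Prf1 by 1.53 on the log2 scale (SE 0.24, adjusted p = 0.003977), and DSP-0509 raised it by 1.28 (SE 0.24, adjusted p = 0.04452). Under anti-PD-1 antibody the log2 change was 0.91 (SE 0.24), and its adjusted p of 0.1927 missed the threshold. The call for DSP-0509 was lost without vehicle tumor 1, vehicle tumor 3, DSP-0509 tumor 1 or DSP-0509 tumor 3 (highest adjusted p = 0.1724), whereas without vehicle tumor 2 Prf1 passed after anti-PD-1 antibody too (adjusted p = 0.03403). The calls of Prf1, Gzmb and Gzmk in the combination held with any 1 tumor left out, at highest adjusted p of 0.02493, 0.03588 and 0.02493.

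**Figure D1:**
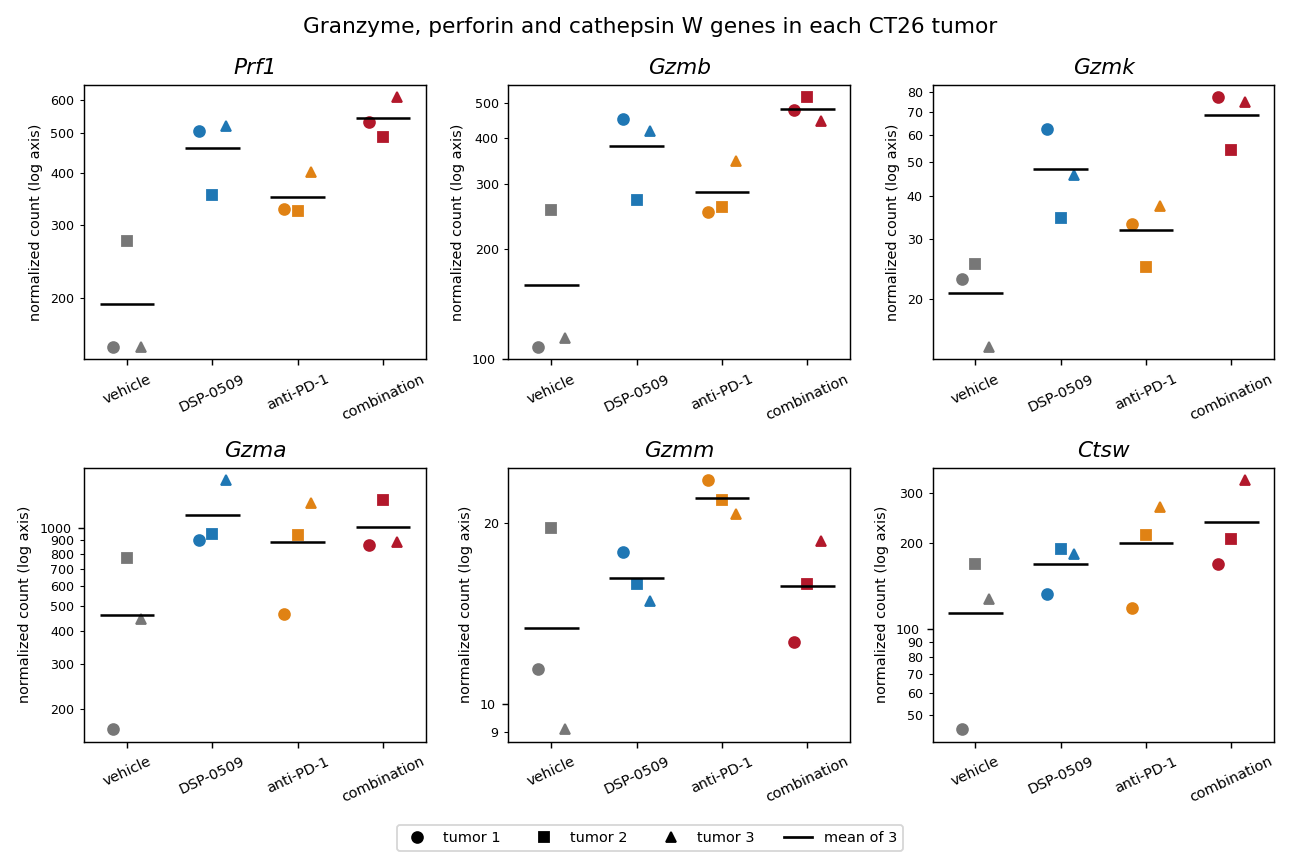
Normalized count (log axis) of each of the 6 genes in 12 CT26 tumors, by group, with 1 point per tumor and a bar at the mean of 3. All 9 treated tumors lie above the vehicle tumors for Prf1, the combination lies apart from vehicle for Gzmb and Gzmk, and every treated group overlaps vehicle for Ctsw, as do the anti-PD-1 tumors for Gzma.

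Gzmb, the granzyme that starts caspase-driven death, stood at 108, 255 and 115 in vehicle tumors. It stood at 453, 271 and 419.7 after DSP-0509, at 252, 259.6 and 347 after anti-PD-1 antibody, and at 478, 518 and 447 after the combination. The combination and DSP-0509 tumors lay above all vehicle tumors, while vehicle tumor 2 reached into the range of the anti-PD-1 tumors. The log2 change was 1.70 for the combination (SE 0.32, adjusted p = 0.007415). It was 1.34 for DSP-0509 (adjusted p = 0.05846) and 0.94 for anti-PD-1 antibody (adjusted p = 0.237), neither of which passed. The vehicle spread rested on tumor 2: without it, Gzmb also passed after DSP-0509 (adjusted p = 0.006085) and after anti-PD-1 antibody (adjusted p = 0.03403).

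Gzmk, a trypsin-like granzyme, was measured at 22.9, 25.2 and 14.55 in vehicle tumors. The values were 62.6, 34.5 and 45.8 after DSP-0509, 33.2, 24.8 and 37.4 after anti-PD-1 antibody, and 77.1, 54.1 and 74.65 after the combination. Combination and DSP-0509 tumors were all above vehicle, and the anti-PD-1 tumors overlapped it. Before scaling, vehicle tumors 1 to 3 held 22, 27 and 16 counts, not far above their negative probe limits of 20.53, 19.09 and 12.85. The combination raised Gzmk by 1.69 on the log2 scale (SE 0.27, adjusted p = 0.003977), from this low vehicle level. The call held after background subtraction, where 15.8% of all genes were called. The change of 1.15 after DSP-0509 (adjusted p = 0.05846) and that of 0.60 after anti-PD-1 antibody (adjusted p = 0.3722) did not pass.

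Gzma, which cleaves substrates other than those of granzyme B, stood at 167, 770.1 and 448 in vehicle tumors. It measured 901, 952 and 1539 after DSP-0509, 466, 944 and 1258 after anti-PD-1 antibody, and 861, 1285 and 889 after the combination. All DSP-0509 and combination tumors lay above vehicle, but vehicle tumors differed among themselves by more than anti-PD-1 and vehicle means did. The mean was 462 ± 302 (SD, n = 3) in vehicle and 1131 ± 355 after DSP-0509. None of the changes passed, with log2 values of 1.501 for DSP-0509 (SE 0.53, adjusted p = 0.2251), 1.36 for the combination (adjusted p = 0.08643) and 1.09 for anti-PD-1 antibody (adjusted p = 0.3889). Without vehicle tumor 2 the combination's value was 1.86 (adjusted p = 0.03861).

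Ctsw, the cathepsin of cytotoxic cells, stood at 44.7, 169 and 127 in vehicle, 133, 190.1 and 183 after DSP-0509, 119, 213 and 266 after anti-PD-1 antibody, and 169, 207 and 332 after the combination. Every treated group overlapped vehicle, the combination only by a near tie of its tumor 1 (168.91) with vehicle tumor 2 (169.17). Its log2 change of 1.19 in the combination (SE 0.48, adjusted p = 0.0984) did not pass, nor did the values of 0.75 for DSP-0509 (adjusted p = 0.4228) and 0.93 for anti-PD-1 antibody (adjusted p = 0.4143).

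Gzmm values, near the negative probes, were 11.4, 19.6 and 9.09 in vehicle, 17.9, 15.8 and 14.9 after DSP-0509, 23.5, 21.8 and 20.6 after anti-PD-1 antibody, and 12.7, 15.85 and 18.7 after the combination. The 3 anti-PD-1 tumors were the 3 highest of all 12. Only these 3 reached 20, the value that let Gzmm be tested. Neither their rank nor a p-value for this group is therefore evidence of a rise. The log2 change there was 0.74 (SE 0.24, adjusted p = 0.2074), and without vehicle tumor 2 it was 1.04 (adjusted p = 0.03403). In the combination it was 0.27 (adjusted p = 0.4613), a direction that turned to -0.16 after quantile normalization, -0.26 after centring each tumor on its median gene and -0.04 with array weights.

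**Figure D2:**
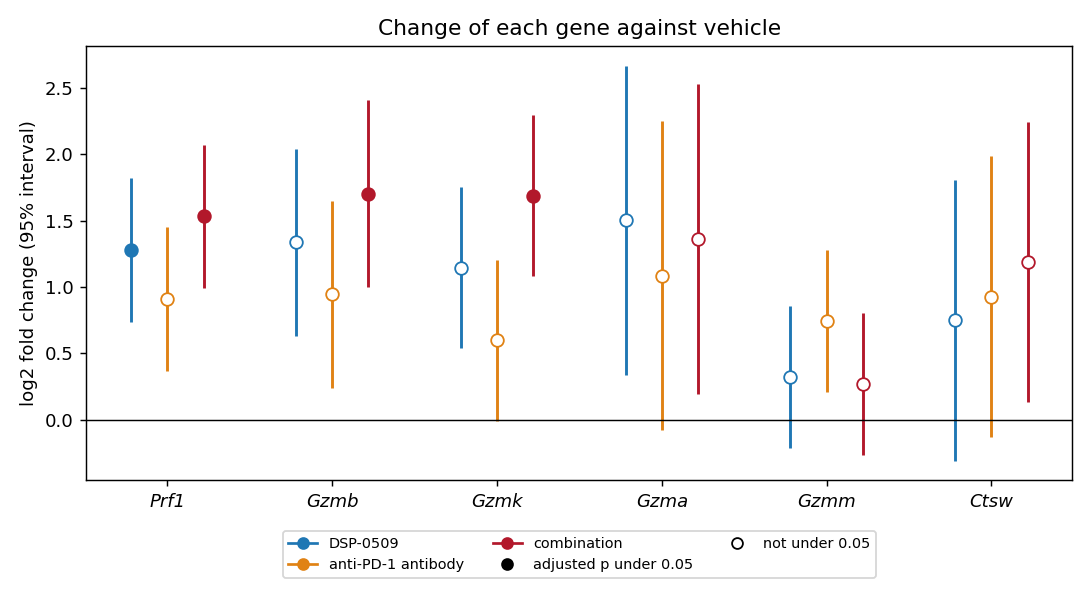
Log2 fold change of each gene against vehicle (y axis) for each of the 3 treated groups, with 95% intervals from limma on 12 tumors, filled where the adjusted p is under 0.05. The 4 filled points are Prf1, Gzmb and Gzmk in the combination and Prf1 after DSP-0509.

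Against the panel as a whole, 3 of the 6 genes were called higher in the combination, where 21.5% of all genes tested were. After DSP-0509 1 of the 6 was called, against 0.774% of all genes, and after anti-PD-1 antibody 0 of 6, against 0%. At an unadjusted p under 0.05, limma gave 3 of the 6 and 83 genes in all for anti-PD-1 antibody. The 3 were Prf1, Gzmb and Gzmm, and Gzmm cannot count as support, since it was tested only through that group. All 3 treated tumors lay above all 3 vehicle tumors for 4 of the 6 genes in the combination (38.5% of all genes), for 4 after DSP-0509 (16.4%) and, after anti-PD-1 antibody, for Prf1 (12.4%) and for Gzmm, whose separation there is partly set by the filter. The 6 genes had a median log2 change of 1.45 in the combination, against 0.34 over all genes tested, of 1.21 after DSP-0509, against 0.20, and of 0.92 after anti-PD-1 antibody, against 0.18. With Gzmm among them, these medians describe the 6 genes and test nothing. The 3 contrasts share their vehicle tumors.

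The split of calls in the combination depended on the scaling of the deposited counts. In the combination, 139 genes were higher and 3 lower as deposited, 231 and 1 after rescaling to the housekeeping genes, 65 and 70 after quantile normalization, and 63 and 136 after centring each tumor on its median gene. The last 2 scalings put the median gene at -0.13 and -0.19 in place of 0.34. Prf1 kept its call in all of them, with log2 changes from 0.98 (quantile) to 1.62 (housekeeping). The values for Gzmb ran from 1.16 to 1.79 and those for Gzmk from 1.08 to 1.77, and both kept their calls. After DSP-0509 alone, the call of Prf1 was lost under quantile normalization (adjusted p = 0.08607) and median centring (adjusted p = 0.08829).

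The question of what the second agent added was asked by comparing the combination with either agent alone. By limma, the combination exceeded anti-PD-1 antibody on the log2 scale by 0.63 for Prf1 (adjusted p = 0.437) and 0.76 for Gzmb (adjusted p = 0.4678). For Gzmk the difference was 1.09 (adjusted p = 0.3033). It was -0.47 for Gzmm (adjusted p = 0.5353), which was tested only through the anti-PD-1 group. None passed, and 0% of all genes did (3 of the 6 and 66 genes in all at an unadjusted p under 0.05). The 95% interval for Gzmk, 0.48 to 1.70, lay above 0 before adjustment, and array weights gave it an adjusted p of 0.03676. The combination and DSP-0509 differed by 0.25 for Prf1 (95% interval -0.29 to 0.80), 0.37 for Gzmb (-0.34 to 1.07) and 0.54 for Gzmk (-0.07 to 1.15). These groups overlapped for all 6 genes, 0% of all genes passed, and 0 of the 6 and 64 genes in all had an unadjusted p under 0.05. DSP-0509 and anti-PD-1 tumors were not told apart either, at adjusted p = 0.9994 by limma for each of the 6 genes and with 0% of all genes called (0 of the 6 and 25 genes in all at an unadjusted p under 0.05). The intervals leave room for differences of more than 1 on the log2 scale in both comparisons for Gzmb and Gzmk.

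The interaction term of limma asks whether the combination departed from the sum of both single-agent changes on the log2 scale. It was below 0 for all 6 genes, from -1.23 for Gzma (95% interval -2.87 to 0.42) to -0.06 for Gzmk (-0.91 to 0.80), and was -0.79 for Gzmm (-1.55 to -0.04), -0.65 for Prf1 (-1.42 to 0.11) and -0.58 for Gzmb (-1.57 to 0.42). The median was -0.61 over the 6 genes, Gzmm among them, and -0.0028 over all genes tested. None passed by limma (adjusted p = 0.9996 for each), and 0% of all genes did. At an unadjusted p under 0.05 there were 1 of the 6 (Gzmm) and 9 genes in all. Gzmm was tested only because its anti-PD-1 tumors reached the filter, and the same tumors lower its interaction term. Neither its estimate nor its p-value is therefore evidence of a departure. The 6 estimates share the same 12 tumors.

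Averaged over the presence of antibody, DSP-0509 and combination tumors were set against vehicle and anti-PD-1 tumors. Prf1 was higher by 0.95 (SE 0.17, adjusted p = 0.01649), Gzmb by 1.05 (SE 0.22, adjusted p = 0.02769) and Gzmk by 1.12 (SE 0.19, adjusted p = 0.0144), so 3 of the 6 were called against 5.88% of all genes tested. The values for Gzma (0.89, adjusted p = 0.1743), Ctsw (0.50, adjusted p = 0.3572) and Gzmm (-0.08, adjusted p = 0.8067) did not pass. All 3 calls were lost without combination tumor 3, and that for Gzmb also without vehicle tumor 1, DSP-0509 tumor 1, DSP-0509 tumor 3, anti-PD-1 tumor 1, anti-PD-1 tumor 2 or combination tumor 2. Quantile normalization left Gzmk called alone, and median centring left 0 of the 3. Averaged over DSP-0509, anti-PD-1 antibody gave log2 values of 0.58 for Prf1 (adjusted p = 0.09862), 0.66 for Gzmb (adjusted p = 0.1338), 0.57 for Gzmk (adjusted p = 0.1303) and 0.68 for Ctsw (adjusted p = 0.2271). None of the 6 was called, against 0.929% of all genes, and 3 of the 6 and 159 genes in all had an unadjusted p under 0.05. Without vehicle tumor 2, Gzmb and Prf1 passed.

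Genes of the cells that carry granules were measured in the same tumors, and the counts called below are to be read against the 21.5% of all genes called higher in the combination and their median of 0.34. The summed level of 8 T cell genes ran from 679 to 1175 in vehicle, 1309 to 1446 after DSP-0509, 1102 to 1862 after anti-PD-1 antibody and 1752 to 2781 in the combination. In the combination 4 of 8 were called higher, among them the T cell receptor chains Cd3d (1.38), Cd3e (1.51) and Cd3g (1.57) in log2 change, with a list median of 1.26. Cd2 did not pass (1.28, adjusted p = 0.124). Both CD8 chains were called in the combination, Cd8a by 1.63 (adjusted p = 0.01103) and Cd8b1 by 1.66 (adjusted p = 0.009697). Their summed level ran from 69.6 to 127 in vehicle, 164 to 218 after DSP-0509, 168 to 220.0 after anti-PD-1 antibody and 225 to 561 in the combination.

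Of the 12 NK cell genes on the panel 8 were tested and 2 were called in the combination, the NK receptor chains Klrc1 (1.64) and Klrd1 (1.52), a share near that of all genes, while Klrb1c, Klra1, Klra4 and Klra21 stayed below the filter. Klrc2 (1.48, adjusted p = 0.05619) and Klrk1 (1.502, adjusted p = 0.05376) did not pass, and the median of the 8 was 1.25. The summed level of all 12 ran from 631 to 1570 in vehicle, 1704 to 1922 after DSP-0509, 1334 to 2639 after anti-PD-1 antibody and 2029 to 3973 in the combination. Of 5 genes of CD4 and regulatory T cells 3 were called: Il2ra (1.17), Ikzf2 (1.14) and Ctla4 (1.13), with sums from 156 to 256 in vehicle and from 351 to 524 in the combination. Cd4 (0.76, adjusted p = 0.1888) and Foxp3 (0.91, adjusted p = 0.1666) did not pass.

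Lists of other cells gave 0 of 5 called in the combination for mast cells and basophils (sums from 519 to 2351 in vehicle and from 1030 to 2070 in the combination), 0 of 3 tested for neutrophils and myeloid granules (1434 to 2671, and 1418 to 3625) and 0 of 1 for B cells (43.0 to 97.3, and 68.6 to 97.0). Mpo and Elane, granule proteins of neutrophils, were below the filter. Of 6 macrophage genes 1 was called, Cd68 (0.67, adjusted p = 0.0169), with a list median of 0.58 and sums from 6101 to 11100 in vehicle and 9606 to 12490 in the combination. Of 8 fibroblast and endothelial genes 3 were called, Col1a1 (1.89), Col3a1 (2.17) and Fap (1.401), while Tek did not pass (0.55, adjusted p = 0.4577) and the list median of 0.26 was below that of all genes, with sums from 4981 to 20280 in vehicle and 19030 to 34700 in the combination. After either single agent, 0 genes of any of these cell type lists were called by limma, where 0.774% (DSP-0509) and 0% (anti-PD-1 antibody) of all genes were. The part that these cells had in the values of the 6 genes was not tested. The values relative to CD3 that follow do not test it either, since they cannot tell cell number from RNA per cell.

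Each of the 6 genes was also expressed relative to the mean log2 level of Cd3d, Cd3e and Cd3g in the same tumor. That mean ran from 6.22 to 7.06 in vehicle tumors, 7.35 to 7.51 after DSP-0509, 7.47 to 7.92 after anti-PD-1 antibody and 7.91 to 8.87 in the combination, whose tumor 3 was the highest of all. Relative to CD3, the combination and vehicle differed by 0.04 for Prf1 (adjusted p = 0.9083), 0.22 for Gzmb (adjusted p = 0.6036) and 0.20 for Gzmk (adjusted p = 0.6479). The log2 ratio of Prf1 to CD3 was 1.04, 1.05 and 0.24 in vehicle tumors and 1.15, 0.93 and 0.38 in combination tumors, so the groups overlapped on this scale. Gzma (-0.13, adjusted p = 0.7979) and Ctsw (-0.30, adjusted p = 0.413) did not pass either. Gzmm was called lower (-1.22, adjusted p = 0.005192), but its values lie near the negative probes and 64.6% of all genes were called on this scale, in either direction.

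After DSP-0509 alone the values relative to CD3 were 0.85 for Gzma (adjusted p = 0.235), 0.68 for Gzmb (adjusted p = 0.2481), 0.62 for Prf1 (adjusted p = 0.2356), 0.49 for Gzmk (adjusted p = 0.4032), 0.09 for Ctsw and -0.33 for Gzmm. None passed, and 0% of all genes did. The 3 ratios for Prf1, 1.47, 1.0521 and 1.67, all lay above the highest vehicle ratio of 1.0456, by a narrow margin in tumor 2. How many of all genes separate from vehicle on this scale was not counted, so this describes the 3 tumors only. After anti-PD-1 antibody the values ran from -0.38 (Gzmk) to 0.11 (Gzma) and none of the 6 passed, against 38.5% of all genes. The difference between DSP-0509 and the combination on this scale was not tested. With the CD8 genes in place of CD3, the number called was the same in all 3 comparisons. The separation of Prf1 after DSP-0509 was not seen there: its log2 ratios to CD8 were 2.503, 2.37 and 1.79 in vehicle tumors and 2.91, 2.11 and 2.69 in DSP-0509 tumors, a difference of 0.35 (adjusted p = 0.4458), and Ctsw turned from 0.09 to -0.18.

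**Figure D3:**
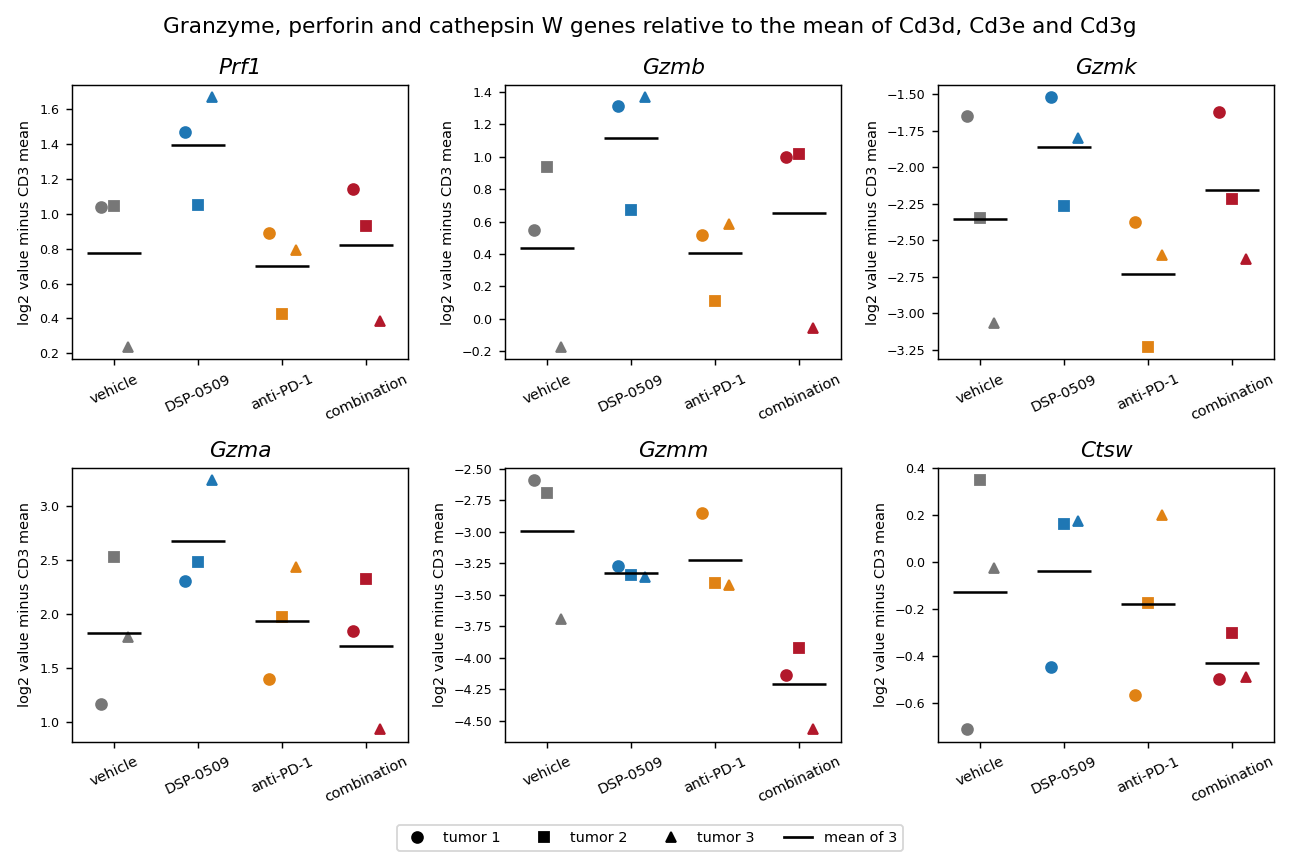
Log2 value of each gene minus the mean log2 value of Cd3d, Cd3e and Cd3g in the same tumor (y axis), by group, with 1 point per tumor and a bar at the mean of 3. For Prf1 the 3 DSP-0509 tumors lie above vehicle while combination tumors overlap it, and the only gene called on this scale is Gzmm in the combination.

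The other arms of killing were measured in the same tumors, with lists of panel genes grouped by role. Of 6 killing ligands and cytokines 5 were called higher in the combination, with a list median of 1.32. Among them were the death ligands Fasl (1.75, SE 0.24, adjusted p = 0.002293) and Tnfsf10 (1.52), the cytokine Ifng (1.44) and Ltb (1.20), a membrane-bound relative of lymphotoxin. Of 10 genes that receive or carry out the death signal in the target cell 1 was called, the receptor Fas (1.11, adjusted p = 0.00837), and the list median of 0.03 was below that of all genes, 0.34. Tnfrsf1a (0.30), Fadd (-0.12) and Bid (0.11), a substrate of human granzyme B, did not pass.

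Of 15 genes for cytokines that drive granule genes and for their receptors, 12 were tested. In the combination 9 of 12 were called, where 21.5% of all genes were. After DSP-0509 1 of 12 was called, against 0.774% of all genes. The genes named next are all receptor chains. The interleukin 12 receptor chain Il12rb2 rose by 1.63 in the combination (adjusted p = 0.0007453) and by 1.09 after DSP-0509 (adjusted p = 0.02005). Il15ra, which presents interleukin 15, rose by 1.77 in the combination, Il2rb by 1.59 and Il18r1 by 1.34. Of 9 genes tested for triggering and signalling of cytotoxic cells 6 were called, including the NK and T cell receptor Slamf7 (1.81), the signalling chain Cd247 (1.48) and the kinase Lck (1.22), whereas Klrk1, the activating receptor NKG2D, did not pass.

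Of 10 transcription factors of cytotoxic cells 2 were called, Tbx21 (1.12, adjusted p = 0.02966), which encodes T-bet, and Stat4 (0.86, adjusted p = 0.03915). Eomes (0.96, adjusted p = 0.09549) and Nfatc2 (0.88, adjusted p = 0.17) did not pass, and the list median was 0.48. This share is near the 21.5% of all genes. Of 8 lysosome and other cathepsin genes 1 was called, the aminopeptidase Ctsh (1.03, adjusted p = 0.02913), while Ctss (0.73, adjusted p = 0.07059), Igf2r (0.63, adjusted p = 0.07653) and Ctsg (0.59, adjusted p = 0.4713) were not. The median of that list, 0.35, was close to that of all genes.

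Over the 12 tumors the 6 genes did not vary as one. Prf1 and Gzmb varied together most closely, with a Pearson r of log2 values of 0.98 (Spearman coefficient 0.87), still 0.92 after the group means were removed and 0.93 without the 2 tumors farthest from the median. Gzmk followed Prf1 (r = 0.92, Spearman 0.97, within groups 0.69). Gzma was close to Ctsw (r = 0.86, Spearman 0.70, within groups 0.84), although r fell to 0.51 without 2 tumors. Gzma and Gzmk, the neighbors on chromosome 13, had r = 0.53, Spearman 0.47 and -0.10 within groups, and Gzmk and Ctsw had 0.45, 0.39 and -0.15. These are descriptions over tumors that share their groups and their scaling. Tumor 1 was the lowest of its group in 4 of 4 groups for Gzma and Ctsw, and in 0 of 4 for Gzmk and Prf1.

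**Figure D4:**
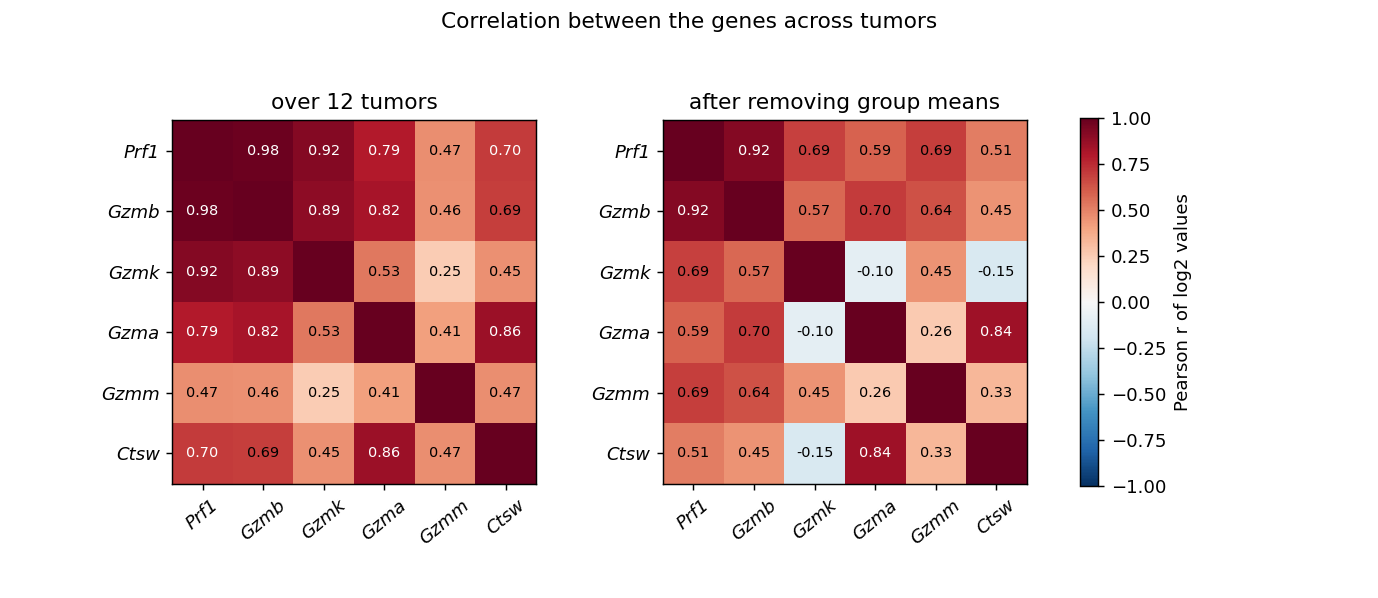
Pearson r of log2 values between each pair of the 6 genes over 12 tumors (left) and after removing group means (right), on a color scale from -1 to 1. Prf1 and Gzmb stay at 0.92 within groups, Gzma and Ctsw at 0.84, and Gzma and Gzmk fall from 0.53 to -0.10.

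The 3 genes of the panel most like each of the 6 over the 12 tumors were taken by Pearson r. The median r over all genes was 0.46 for Gzma, 0.36 for Gzmb and Prf1, 0.27 for Gzmk, 0.47 for Ctsw and 0.07 for Gzmm. For Gzmb they were Prf1, the tryptophan-degrading enzyme Ido1 (r = 0.93) and Gbp5 (r = 0.93), an interferon-induced GTPase, and for Prf1 they were Gzmb, Ido1 (r = 0.96) and Gbp5 (r = 0.95). Gzmk was most like the adhesion molecule Vcam1 (r = 0.96, within groups 0.90), Cd274, which encodes PD-L1 (r = 0.93), and Il12rb2 (r = 0.92, within groups 0.41). Vcam1 itself changed little in the combination, by 0.27 on the log2 scale (limma, adjusted p = 0.1125). Ctsw was most like the T cell kinases Lck (r = 0.98, within groups 0.99) and Zap70 (r = 0.96) and the death ligand Tnfsf10 (r = 0.96). Gzma was most like the immunoproteasome subunit Psmb10 (r = 0.93), Cd180 (r = 0.91) and the NK cell receptor Ncr1 (r = 0.91, within groups 0.90), and without 2 tumors these fell to 0.85, 0.66 and 0.65. Spearman coefficients ran from 0.80 to 0.97 for these 5 genes. Gzmm had no close companion, with r of 0.81 for Syt17, 0.78 for Cd244 and 0.67 for Klrg1, the last at -0.15 without 2 tumors.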

How the data were processed

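Total RNA of 12 CT26 tumors, 1 per mouse, was hybridized to the nCounter mouse immune panel. The deposited values are a signal: counts that the authors normalized in nSolver with 1 factor per tumor, no background subtracted and control probes unscaled. How the factor was chosen is not given in the sources used here. All value columns were used. Whole steps of the values (100% within 0.1) gave the counts before scaling. Since the controls are unscaled, these counts served for the depth, for the comparison with the negative probes and for background subtraction.

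Values were taken to log2(value + 1), and 646 of 750 endogenous genes (those reaching 20 in 3 or more tumors) were tested in limma 3.58.1 (R 4.3.3), with 4 groups in 1 fit, no covariate and Benjamini-Hochberg adjustment over all genes tested in each of 9 comparisons. Fold changes are on the log2(value + 1) scale, which understates the change of low genes. With 3 against 3 tumors an exact permutation test of a single gene cannot go below 0.1, so none was run. The study's unpaired t-test was an alternative. The script was checked on simulated data.

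The 6 genes and the 16 gene lists were chosen with earlier results of these data known. Named were the 6 genes, up to 4 genes of each list with the largest change in the combination (all in lists of 5 or fewer) and the 3 genes most like each of the 6; Epcam, Cdh1 and markers under the filter were added after their values were seen.

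Tumors that share a number deviated together in 3 of the 6 pairwise comparisons (r over 0.1 for each number): vehicle with anti-PD-1 antibody, r = 0.18 to 0.68; DSP-0509 with the combination, 0.33 to 0.59; anti-PD-1 antibody with the combination, 0.14 to 0.69. No source says what a number marks. Other alternatives were a pseudocount of 10, no filter and a filter of 50, rescaling to 20 housekeeping genes, quantile normalization, background subtraction, array weights, fits of only the groups compared and each tumor left out. Centring on the median gene was one more. Leaving out the 4 tumors numbered 1 was chosen after seeing the data. Promoters came from RefSeq's GRCm38.p6 table. Plots were made with matplotlib 3.10.9 in Python 3.11.15.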

Additional observations from a re-analysis of the deposited data

How the results depend on the processing

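The number of the 6 genes called is given first, with the share of all genes called in either direction beside it. For the combination against vehicle (3, with 22%) it was 5 after housekeeping rescaling (35.9%) and 5 with the replicate block (38.7%). It was 0 by the methods' t-test with adjustment (0.619%), and 3 to 4 with 1 tumor left out (9.13% to 24.3%). For DSP-0509 against vehicle (1, with 0.774%) it was 2 after housekeeping rescaling (4.33%) and 4 with the replicate block (12.5%). It was 0 with no filter (0.533%), quantile normalization (1.55%), median centring (0.619%) or background subtraction (0.619%). It was also 0 with only the groups compared (0.155%), array weights (5.88%), the t-test (0%) or without the 4 tumors numbered 1 (0.155%). With 1 tumor left out it was 0 to 2 (0% to 1.24%). For anti-PD-1 antibody against vehicle it was 0 to 3 with 1 tumor left out (0% to 1.39%). The 3 included Gzmm, which was tested only through that group. For the combination against anti-PD-1 antibody (0) it was 1 with array weights (3.87%). For DSP-0509 averaged over antibody (3, with 5.88%) it was 1 after quantile normalization (4.33%), 0 after median centring (3.25%) and 0 without the tumors numbered 1 (2.63%). It was 4 with the replicate block (25.1%), and 0 to 3 with 1 tumor left out (0.929% to 7.43%). For anti-PD-1 antibody averaged over DSP-0509 (0, with 0.929%) it was 1 after housekeeping rescaling (13%), 2 with array weights (32.5%) and 1 with the replicate block (19.8%). With 1 tumor left out it was 0 to 2 (0% to 9.6%). The block changed no call of the 6 genes in the 3 comparisons whose numbers pair the tumors. Directions reversed for Gzmm in the combination against DSP-0509 (0.0186 after housekeeping rescaling, 0.16 without the tumors numbered 1, -0.18 to 0.0860 with 1 tumor left out), against vehicle (-0.16 quantile, -0.26 median centring, -0.0383 array weights) and for DSP-0509 against vehicle (-0.0124 array weights). They reversed for Ctsw in the combination against anti-PD-1 antibody (-0.0438 quantile, -0.0839 array weights, -0.0726 to 0.51 with 1 tumor left out) and DSP-0509 against anti-PD-1 antibody (-0.51 to 0.0671), for Prf1 in the combination against DSP-0509 (-0.0777 median centring), and for Gzma in the combination against DSP-0509 (0.13 array weights, -0.33 to 0.10 with 1 tumor left out) and against anti-PD-1 antibody (-0.0282 without the tumors numbered 1, -0.13 to 0.58 with 1 tumor left out). None of the reversed values had passed the test. The causes were not tested. Of the values for single genes, 200 kept direction and side of the threshold with 1 tumor left out, 5 passed newly, 4 no longer passed and 7 reversed. A count model listed at the start was not run, since the control probes in the same columns are not on the scale of the genes. The depth limits Gzmm most, at 10 to 22 counts.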
